A study of Danio rerio with 12 samples.

Results

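The Hox genes of the zebrafish were followed in early embryos after joint knockdown of the T-box transcription factors Ta and Tbx16. They were taken as every array feature whose gene symbol reads hox, a cluster letter from a to d, a number, and the copy letter a or b. The rule found 122 of the 45220 features, which stood for 45 of the 13393 genes named on the array. RefSeq lists 49 protein-coding Hox genes in the zebrafish. The other 4, *hoxa5a*, *hoxb1b*, *hoxc10a* and *hoxc11b*, were not analysed here. Where a gene had several features, as 39 of the 45 did, the feature with the highest mean over the 12 arrays stood for it, and the others were used as a check.

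Hox genes encode homeodomain transcription factors that give cells along the head-to-tail axis their regional identity. They lie in clusters, and their order in a cluster, marked by the paralogue number, follows the order in which they are switched on and the positions of their expression along the axis. Low numbers belong to the hindbrain, middle numbers to the trunk and high numbers to the tail, and in zebrafish the genes are first transcribed during gastrulation and segmentation. The 45 genes covered 13 paralogue numbers and 7 clusters, with 6 genes in hoxaa, 5 in hoxab, 11 in hoxba, 3 in hoxbb, 10 in hoxca, 3 in hoxcb and 7 in hoxda.

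Embryos of the AB strain were compared in 4 groups of 3 samples, each sample being total RNA of 200 whole embryos on its own 1-colour Agilent zebrafish array. Double morphants, injected with 0.5 pmol of *tbx16* and 0.25 pmol of *ta* morpholino, were collected at 90% epiboly, near the end of gastrulation, and controls for them received 0.75 pmol of standard control morpholino. Double morphants and controls with the same doses were also collected at shield stage, early in gastrulation. All 4 groups were therefore injected, and no single knockdown was part of this comparison. A morpholino lowers the protein in every cell that holds it, with some remainder, and is not a null mutant. Nothing in the labels says that the samples came from separate clutches, so a p-value here reflects no more than how far these samples scatter, which may be technical.

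Values are deposited, normalized log2 signals, the base being inferred from their range. A difference of 1 is then a 2-fold change within a feature. Signals of different features are not comparable with each other. Array medians lay between 7.06 and 7.07, samples of a group correlated at 0.966 to 0.990 over all features, and no 2 arrays were identical. A morpholino need not lower the RNA of its target. The *ta* feature (tbxta) had 10.80, 11.27 and 11.08 in 90% epiboly double morphants, against 9.44, 9.15 and 9.14 in controls, and the 3 *tbx16* features differed by 0.24 to 0.56 without passing, so the targets check no label. The groups were separated by the mesoderm gene *msgn1*, which had 7.50, 7.58 and 7.45 in 90% epiboly double morphants, against 12.98, 13.08 and 13.21 in their controls. Paraxial mesoderm markers were below control at the adjusted threshold for 6 of 9 measured genes at 90% epiboly (0.506% of all features). At shield it was 5 of 9 (0.279%). Their mean level at 90% epiboly was 6.97 to 7.15 in double morphants and 9.28 to 9.53 in controls. Neural plate markers had a mean of 9.76 to 9.93 in double morphants and 9.69 to 9.82 in controls. None of these 9 passed at 90% epiboly by limma, and 2 were higher at an unadjusted p under 0.05 (2.52% of all features). At shield *zic2a* was lower at the adjusted threshold. Unadjusted, 2 of the 9 were lower and 2 higher there (4.55% and 4.41% of all features). The shield differences of the 9 lay between -3.99 (*six3b*) and 0.63 (*sox1a*). Of 5 notochord, 4 enveloping layer, 3 yolk syncytial layer and 3 p53 response genes measured, 0 passed at either stage. At an unadjusted limma p under 0.05, 3 notochord and 2 enveloping layer genes were lower at 90% epiboly (3.13% of all features). There 1 p53 gene was higher (2.52%). At shield 3 notochord genes were lower (4.55% of all features) and 1 p53 gene higher (4.41%) by the same measure. In whole embryos, fewer cells of a type and less RNA per cell cannot be told apart, and the part of the lost mesoderm in the Hox values was not tested.

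The first question was whether double morphants differed from controls in their Hox genes at 90% epiboly. Paralogue numbers 3 to 7 and *hoxb1a* tended to lie lower in double morphants, by up to 1.08 on the log2 scale, while numbers 8 to 13 showed no common direction. This grouping was chosen after the values were seen. Within numbers 3 to 7 some genes were nearly level by the feature that stood for them, with *hoxa3a*, *hoxd3a*, *hoxb6a* and *hoxc6a* between -0.11 and 0.03. With all features of a gene averaged, *hoxd3a* lay at -0.01, *hoxb6a* at -0.18 and *hoxc6a* at -0.29. No gene passed an adjusted p of 0.05 by the feature that stood for it. Of the 122 features 1 did, the second of the 2 *hoxb3a* features. By limma, 0 of 45 Hox genes were higher, where 0.199% of all features were, and 0 were lower, where 0.506% were. At an unadjusted p under 0.05, 9 of the 45 Hox genes were lower against 3.13% of all features, and 3 were higher against 2.52% of all features. In comparison, the methods' t-test passed 7 of the 45 genes unadjusted, against 7.59% of all features, and 0 after adjustment, where it passed 93 of the 45220 features. With arrays weighted by limma's estimate of their quality, 8 genes passed, of which *hoxb3a*, *hoxb4a*, *hoxb5b*, *hoxc5a*, *hoxb7a* and *hoxd9a* were lower (against 1.46% of all features) and *hoxa9b* and *hoxa11a* higher (against 1.03%). That setting raised the calls over all 45220 features as well, to 1129 against 319 without weights. With all features of a gene averaged, *hoxb3a* (-0.95, adjusted p = 0.0213) and *hoxb5b* (-1.10, adjusted p = 0.0490) were lower, where 0.475% of all averaged genes and unnamed features were.

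*hoxb3a* acts in the posterior hindbrain, in the segments that follow the *hoxb1a* territory. Its second feature had 6.96, 7.18 and 7.43 in double morphants, against 8.11, 8.13 and 8.39 in controls at 90% epiboly. Every double morphant lay below every control, by at least the spread within either group. The difference was -1.02 ± 0.18 (SE, n = 3 each), with a limma adjusted p of 0.0149. The first feature had 7.04, 7.31 and 7.45 in double morphants, against 7.74, 8.03 and 8.65 in controls. These groups did not overlap either, but the controls were more spread, with replicate 3 highest. The difference there was -0.87 ± 0.22 (adjusted p = 0.154). The call on the second feature was lost without any 1 of 4 arrays, 90% epiboly control replicate 2 or 3 or double morphant replicate 1 or 2, with adjusted p between 0.0552 and 0.0919.

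*hoxc3a*, the hoxca gene of paralogue number 3, had 7.05, 8.37 and 8.01 in double morphants, against 8.27, 8.58 and 9.18 in controls. Double morphant replicate 2 lay above the lowest control, so the groups overlapped for this feature. Its difference of -0.87 ± 0.34 had an adjusted p of 0.709, and without double morphant replicate 1 it was -0.48. The other 3 features of *hoxc3a* lay at -0.94, -0.94 and -0.41, with no overlap between the groups in any of them. *hoxd3a* and *hoxa3a* stood apart from this pair, with differences of 0.03 ± 0.18 and -0.11 ± 0.17.

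*hoxb4a* marks the hindbrain-spinal cord transition and responds to retinoic acid. It had 6.22, 6.50 and 6.13 in double morphants, against 7.19, 7.03 and 7.31 in controls, so that the groups were well separated. The difference was -0.89 ± 0.21 (adjusted p = 0.107), and its second feature gave -0.66. The other 3 genes of number 4 lay between -0.20 and 0.13 by the feature that stood for them.

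Of the genes of number 5, *hoxb5b*, which acts in lateral plate mesoderm, showed the largest negative difference of all 45 genes. Its values were 6.85, 7.43 and 7.30 in double morphants, against 8.11, 7.94 and 8.77 in controls. No values overlapped, with control replicate 3 highest and double morphant replicate 1 lowest. The difference was -1.08 ± 0.27 (adjusted p = 0.126), and the other 2 features lay at -1.18 and -1.04 (adjusted p = 0.0726 and 0.0928). *hoxc5a* had 6.89, 7.17 and 7.0 in double morphants, against 7.50, 7.58 and 7.96 in controls. Its groups did not overlap, with a difference of -0.66 ± 0.18 (adjusted p = 0.237) and -0.84 in its second feature. *hoxb5a*, the copy of *hoxb5b* in the hoxba cluster, differed by -0.20 ± 0.19.

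*hoxb7a*, the 1 measured gene of number 7 and active in the trunk, had 6.85, 7.26 and 7.55 in double morphants, against 7.90, 8.08 and 8.72 in controls. All double morphants lay below all controls, at a difference of -1.01 ± 0.28 (adjusted p = 0.241). Its second feature gave -0.61, also without overlap, and the third gave -0.08, with values between 5.52 and 5.91 in all 12 arrays. *hoxb6b* had 5.90, 7.03 and 7.11 in double morphants, against 6.88, 7.32 and 8.33 in controls. The groups overlapped here, and the difference of -0.83 ± 0.35 was -0.44 without double morphant replicate 1 and -0.42 without control replicate 3. *hoxc6b* lay at -0.40 ± 0.36, and *hoxb6a* and *hoxc6a* lay at -0.04 and 0.00 by the feature that stood for them. With their features averaged, *hoxb6a* lay at -0.18 and *hoxc6a* at -0.29.

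**Figure D1:**
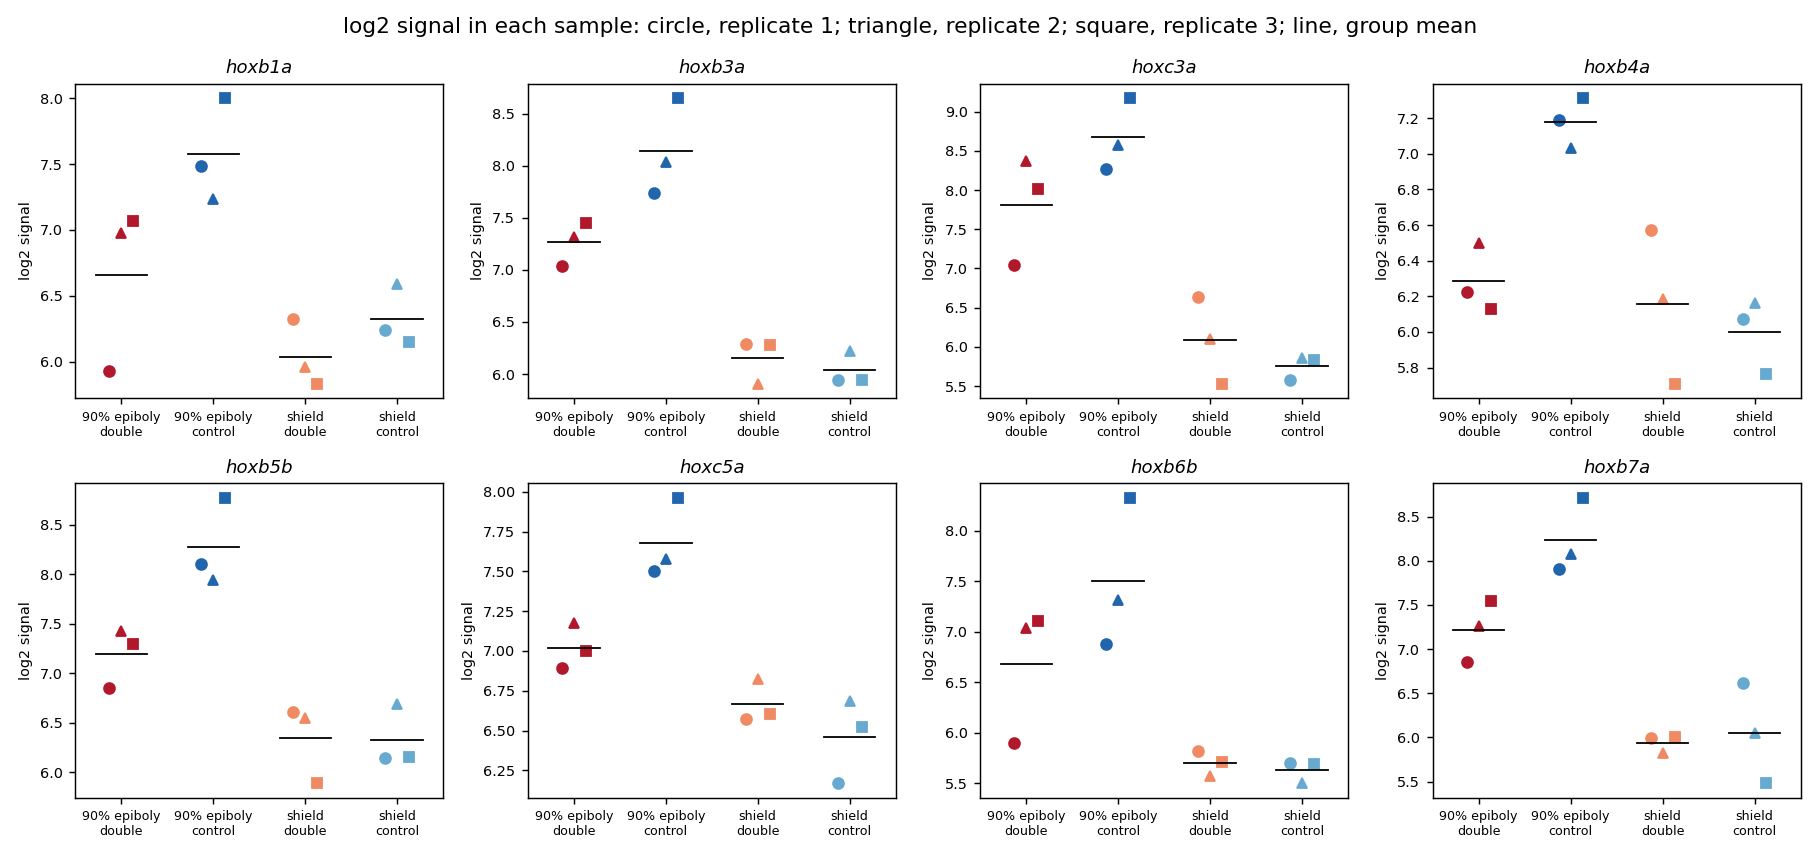
Signal in each of the 12 samples for *hoxb1a* and 7 Hox genes of paralogue numbers 3 to 7, by the feature with the highest mean. The vertical axes are log2 signal, the 4 groups run from 90% epiboly double morphants to shield controls, symbols mark replicate numbers and lines mark group means. The 8 genes are those of the 21 of numbers 1 to 7 that were lower at 90% epiboly at an unadjusted limma p under 0.05. Their separation is thus partly built into the choice. At 90% epiboly every double morphant is below every control except for *hoxc3a* and *hoxb6b*.

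Of the genes of number 1, *hoxb1a* maintains the identity of the fourth hindbrain segment. It had 5.93, 6.98 and 7.07 in double morphants, against 7.49, 7.23 and 8.0 in controls. Replicate 1 of the double morphants was far below the other 2, and the difference of -0.91 ± 0.29 (adjusted p = 0.387) was -0.55 without it. In the second feature, with 6.59, 6.68 and 6.58 in double morphants against 7.15, 7.30 and 7.68 in controls, replicate 1 did not stand apart and the difference was -0.76 ± 0.23 (adjusted p = 0.310). The remaining genes of number 1, *hoxa1a* and *hoxc1a*, differed by -0.06 ± 0.28 and -0.09 ± 0.34.

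Numbers 8 to 13 held 24 genes, and 12 of them lay lower and 12 higher in double morphants. *hoxd9a*, a gene of the posterior trunk and fins, was the 1 gene here that was lower at an unadjusted p under 0.05. It had 9.88, 10.11 and 9.998 in double morphants, against 10.32, 10.63 and 10.56 in controls. The groups did not overlap, at -0.50 ± 0.17 (adjusted p = 0.482), while its other 3 features lay between -0.31 and 0.27. *hoxb10a*, which belongs to the posterior trunk and tail, had 6.78, 7.77 and 7.73 in double morphants and 7.30, 7.14 and 7.72 in controls. These ranges overlapped and the difference was 0.04 ± 0.30. The largest positive difference was that of *hoxa11a*, a gene known from fin development, with 5.46, 7.71 and 8.66 in double morphants and 5.50, 5.33 and 5.30 in controls. It was high in 2 of the 3 double morphants and at the control level in replicate 1. The difference was 1.90 ± 0.54 (adjusted p = 0.266), *hoxa11a* has 1 feature, and without replicate 1 it became 2.81 with an adjusted p of 5.9e-05. The other 2 genes that were higher at an unadjusted p under 0.05, *hoxa9b* at 0.61 ± 0.25 and *hoxc13b* at 0.47 ± 0.17, were named after their values were seen. *hoxa9b* passed the adjusted threshold without double morphant replicate 1, at 0.98 (adjusted p = 0.0283), and with array weights, at 0.88 (adjusted p = 0.0258). Like *hoxa11a*, *hoxa9b* and *hoxc13b* have 1 feature each, so no second feature could check them. The features of all 3 genes were dim, below the 40th percentile of feature means.

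Set out by paralogue number over all their features, 36 of the 44 features of numbers 3 to 7 lay lower in double morphants at 90% epiboly, with a median of -0.38. Among the 66 features of numbers 8 to 13, 29 lay lower, with a median of 0.05. Of all 45220 features, 22197 lay lower and the median was 0.00. An unadjusted p under 0.05 was reached by 18 lower and 0 higher features of numbers 3 to 7, and by 2 lower and 4 higher features of numbers 8 to 13, against 3.13% lower and 2.52% higher of all features. Numbers 1 and 2 held 12 features, 8 of them lower, with a median of -0.08. The boundary between 7 and 8 was drawn after the values were seen, so the split is given with no test, and the difference between the sets was not tested. By the conventional classes, the median over features was -0.08 for numbers 1 and 2 and -0.30 for number 3. It was -0.32 for numbers 4 to 8 and 0.06 for numbers 9 to 13. Features of 1 gene are not separate members. With 1 feature per gene, 12 of the 16 genes of numbers 3 to 7 lay lower, with a median of -0.30. For numbers 8 to 13 it was 12 of 24, with a median of 0.01. The class medians over genes were -0.09, -0.49, -0.20 and -0.04, in the same order.

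**Figure D2:**
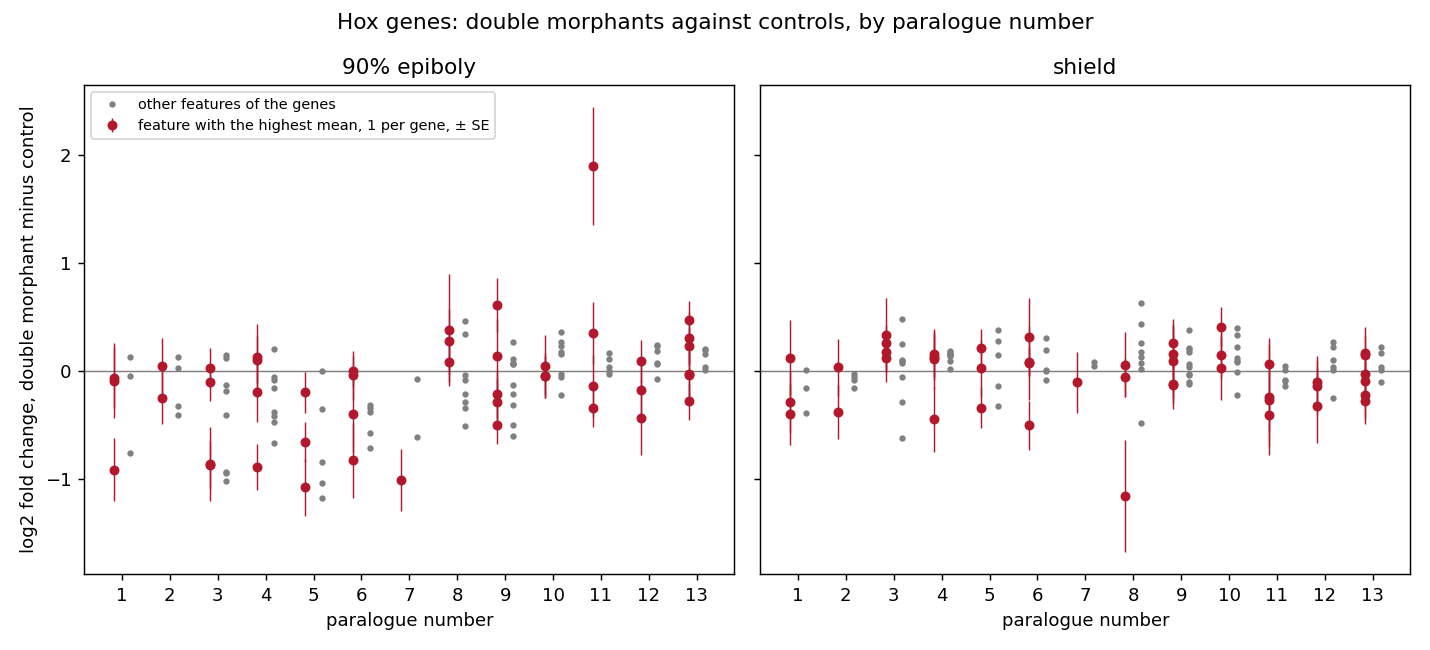
Log2 fold change of every Hox feature between double morphants and controls (vertical axis) against paralogue number (horizontal axis), at 90% epiboly on the left and shield on the right. Red points are the feature that stands for each of the 45 genes with its SE, and grey points are the other features. At 90% epiboly the points of numbers 3 to 7 reach down to -1.18, while those of numbers 8 to 13 go no lower than -0.60.

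Overlap between the groups was also counted at 90% epiboly. All 3 double morphants lay below all 3 controls for 7 Hox genes, *hoxb1a*, *hoxb3a*, *hoxb4a*, *hoxb5b*, *hoxc5a*, *hoxb7a* and *hoxd9a*, which is 15.6% of the 45 against 7.02% of all features. They lay above all controls for 1 gene, *hoxc13b*, which is 2.22% against 7.09% of all features. Over features the counts were 23 of 122 below and 4 above.

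Along the hoxba cluster, low genes and nearly level ones were interspersed at 90% epiboly. The genes *hoxb1a*, *hoxb3a*, *hoxb4a* and *hoxb7a* lay between -1.01 and -0.87, and the genes between them, *hoxb2a*, *hoxb5a* and *hoxb6a*, lay at 0.04, -0.20 and -0.04. From *hoxb8a* to *hoxb13a* the genes lay between -0.29 and 0.31. With all features of a gene averaged, the low 4 lay between -0.95 and -0.57, and the 3 between them at -0.14, -0.18 and -0.18. The features that stood for *hoxb4a*, *hoxb5a* and *hoxb6a* were dim, below the 40th percentile of feature means. In the hoxca cluster *hoxc3a* and *hoxc5a* were the low ones, in hoxbb *hoxb5b* and *hoxb6b*, and in hoxda *hoxd9a*. In hoxaa and hoxab no gene was lower at an unadjusted p under 0.05. Gene models overlap within these clusters in RefSeq (assembly GRCz12tu). That of *hoxb3a* spans *hoxb4a*, *hoxb5a* and *hoxb6a*, and that of *hoxc3a* spans *hoxc4a*, *hoxc5a*, *hoxc6a*, *hoxc8a* and *hoxc9a*, so features of such genes could detect transcripts of a neighbour.

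The samples of a group were not alike in their Hox levels at 90% epiboly. Averaged over the 16 genes of numbers 3 to 7, the 3 double morphants had 7.37, 7.61 and 7.59, against 7.73, 7.88 and 8.26 in controls. Double morphant replicate 1 was the lowest of its group and control replicate 3 the highest. Over the 24 genes of numbers 8 to 13 the double morphants had 7.68, 7.79 and 7.90, against 7.65, 7.70 and 7.72 in controls. These averages overlapped, and replicate 1 was again the lowest double morphant. The same 2 arrays stood out among the 2547 features outside the Hox genes that rose between the stages in controls. Their mean level was 8.90, 8.97 and 8.97 in double morphants and 9.07, 9.10 and 9.23 in the controls on which they were chosen. Among the 3180 that fell in controls, it was 8.31, 8.31 and 8.24 in double morphants and 8.21, 8.18 and 8.06 in controls. Control replicate 3 stood apart there too, but double morphant replicate 1 was level with replicate 2. The part of such differences among samples in the Hox values was not tested.

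At shield the same comparison gave little. No Hox gene passed the adjusted threshold by limma, 0 higher against 0.206% of all features and 0 lower against 0.279%, and the methods' t-test gave 0 as well. At an unadjusted p under 0.05, 1 gene was higher against 4.41% of all features, and 2 were lower against 4.55%, while the methods' t-test passed 0 unadjusted, against 6.01% of all features. The median over the 45 genes was 0.02, and over the 16 genes of numbers 3 to 7 it was 0.12, with 12 of the 16 above 0.

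*hoxc8a*, a trunk gene, had the largest negative difference at shield. It had 8.23, 7.0 and 7.41 in double morphants and 9.81, 9.03 and 7.27 in controls. Control replicate 3 lay within the double morphants, and the difference was -1.16 ± 0.52 (adjusted p = 0.541). In its other 3 features the difference was 0.26, 0.02 and -0.48. *hoxb6a*, at -0.51 ± 0.23, was the other lower gene and was named after its values were seen. The largest positive difference was that of *hoxa10b*, with 6.51, 6.14 and 5.83 in double morphants against 5.74, 5.75 and 5.76 in controls. No values overlapped, at 0.41 ± 0.18 (adjusted p = 0.535), but its second feature lay at -0.22. Of the genes of number 1, *hoxa1a* had 10.93, 10.01 and 10.21 in double morphants and 11.14, 10.64 and 10.58 in controls, a difference of -0.40 ± 0.28. *hoxb1a* differed by -0.29 ± 0.29 and *hoxc1a* by 0.12 ± 0.34. For these 3 genes the groups overlapped.

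The difference between the knockdown effects of the stages was tested directly, as the effect at 90% epiboly minus that at shield. No Hox gene passed by limma, 0 positive against 0.139% of all features and 0 negative against 0.148%. Unadjusted, 6 genes were negative against 2.18% of all features, namely *hoxb3a*, *hoxc3a*, *hoxb4a*, *hoxb5b*, *hoxc5a* and *hoxb7a*. They lay between -1.20 (*hoxc3a*) and -0.87 (*hoxc5a*), with adjusted p from 0.629 upward. *hoxa11a* was positive at 2.14 ± 0.77, against 1.59% of all features at an unadjusted p under 0.05, with an adjusted p of 1.00. An effect at 90% epiboly that differs from the one at shield was therefore not established for any Hox gene by the feature that stood for it, with all arrays in the fit.

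The second question was how Hox genes changed between the stages, with and without Ta and Tbx16. In double morphants, 12 of the 45 genes were higher at 90% epiboly than at shield by limma (against 6.28% of all features) and 0 were lower (6.79% of all features). In controls 18 genes were higher (against 5.73% of all features) and 2 were lower (against 7.04% of all features). At an unadjusted p under 0.05, 2 genes were lower in double morphants, against 13.6% of all features. The methods' t-test passed 16 genes unadjusted in double morphants, against 22.8% of all features, and 21 in controls, against 20.3%. After adjustment it passed 1 gene in double morphants (473 of all features) and 0 in controls (128 of all features). Counting a gene by any of its features, 17 were higher in double morphants and 25 in controls. A gene with several features has several chances to pass that way. Over features, 25 of the 122 were higher in double morphants, 20.5% against 6.28% of all features. In controls 44 of the 122 were higher, 36.1% against 5.73% of all features. The double morphant count of 12 genes fell to 7 and 6 without shield double morphant replicate 2 or 3. It fell to 6 and 4 without 90% epiboly double morphant replicate 2 or 3. Calls over all features fell with it, to 4577, 3134, 3649 and 2992 against 5914 with all arrays. The control count of 20 in both directions fell to 12 without shield control replicate 3 and to 11 without 90% epiboly control replicate 3, where calls over all features were 3362 and 3232 against 5773 with all arrays.

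The genes that were higher at 90% epiboly in both groups, by the feature that stood for them, numbered 10. They were *hoxb3a*, *hoxc3a*, *hoxd3a*, *hoxb5a*, *hoxb7a*, *hoxb8b*, *hoxd9a*, *hoxb10a*, *hoxc12a* and *hoxc12b*. With all features of a gene averaged, *hoxb3a*, *hoxc3a*, *hoxb10a* and *hoxc12b* still passed in both groups. *hoxb7a* then passed in controls alone and *hoxc12a* in double morphants alone. *hoxd3a*, *hoxb5a*, *hoxb8b* and *hoxd9a* passed in neither group that way, with limma adjusted p from 0.0725 upward. Of all features, 5.73% were higher in controls, so no larger share can be higher in both groups or in controls alone. *hoxc3a* rose by 1.72 ± 0.34 in double morphants (adjusted p = 0.00561) and by 2.92 ± 0.34 in controls (adjusted p = 1.9e-04). At shield it had 6.64, 6.10 and 5.53 in double morphants and 5.58, 5.86 and 5.83 in controls, which overlapped. *hoxb3a* rose by 1.11 ± 0.22 in double morphants (adjusted p = 0.00609) and 2.11 ± 0.22 in controls (adjusted p = 1.0e-04). *hoxb7a* rose by 1.28 ± 0.28 in double morphants (adjusted p = 0.0103) and 2.19 ± 0.28 in controls (adjusted p = 3.3e-04). For these 3 genes the rise was smaller in double morphants, a difference that did not pass the adjusted threshold.

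The other 7 genes rose by 0.57 to 1.57 in double morphants and by 0.58 to 1.55 in controls. *hoxb10a* rose by 1.57 ± 0.30 in double morphants and 1.55 ± 0.30 in controls (adjusted p = 0.00394 and 0.00391), with shield values of 6.10, 5.75 and 5.71 in double morphants and 5.42, 5.68 and 6.39 in controls. *hoxc12a*, a gene of the posterior body, rose by 1.28 ± 0.35 in double morphants and 1.39 ± 0.35 in controls, and *hoxc12b* by 0.89 ± 0.27 in double morphants and 0.93 ± 0.27 in controls. *hoxb8b*, the hoxbb copy of a trunk gene, rose by 0.72 ± 0.18 in double morphants and 0.58 ± 0.18 in controls. *hoxd3a* rose by 0.61 in double morphants and 0.75 in controls. *hoxb5a* rose by 0.82 in double morphants and 0.68 in controls, and *hoxd9a* by 0.57 in double morphants and 0.95 in controls. Of these, *hoxc12b*, *hoxd3a* and *hoxd9a* had adjusted p between 0.0437 and 0.0467 in double morphants, and *hoxb8b* had 0.0485 in controls.

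A further 8 genes were higher at 90% epiboly in controls and did not pass in double morphants by the feature that stood for them. They were *hoxb1a*, *hoxb4a*, *hoxb5b*, *hoxc5a*, *hoxb6b*, *hoxc6b*, *hoxa9a* and *hoxb9a*. *hoxb4a* changed by 0.13 ± 0.21 in double morphants (adjusted p = 0.754) and by 1.18 ± 0.21 in controls (adjusted p = 0.00294). Its shield values, 6.57, 6.19 and 5.71 in double morphants and 6.07, 6.16 and 5.76 in controls, overlapped with those of the 90% epiboly double morphants. *hoxb5b* changed by 0.85 ± 0.27 in double morphants (adjusted p = 0.0530) and by 1.95 ± 0.27 in controls (adjusted p = 4.9e-04). The other 6 changed by 0.35 (*hoxc5a*) to 0.98 (*hoxb6b*) in double morphants. In controls they rose by 0.82 (*hoxb9a*) to 1.88 (*hoxb6b*). With all features of a gene averaged, 3 of the 8 did pass in double morphants, *hoxb9a* at 1.86 (adjusted p = 0.00115), *hoxc5a* at 0.69 (adjusted p = 0.0135) and *hoxb5b* at 0.80 (adjusted p = 0.0376). Since they were picked by passing in controls, a smaller value in double morphants is partly built into the choice, and the direct test of the difference passed for none of them.

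Over all genes of numbers 3 to 7, passed or not, the median change between the stages was 0.66 in double morphants and 0.97 in controls. Over numbers 8 to 13 it was 0.42 in double morphants and 0.23 in controls. Over all 45220 features it was -0.01 in double morphants and 0.00 in controls. The 2 groups of arrays share no sample in this comparison.

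**Figure D3:**
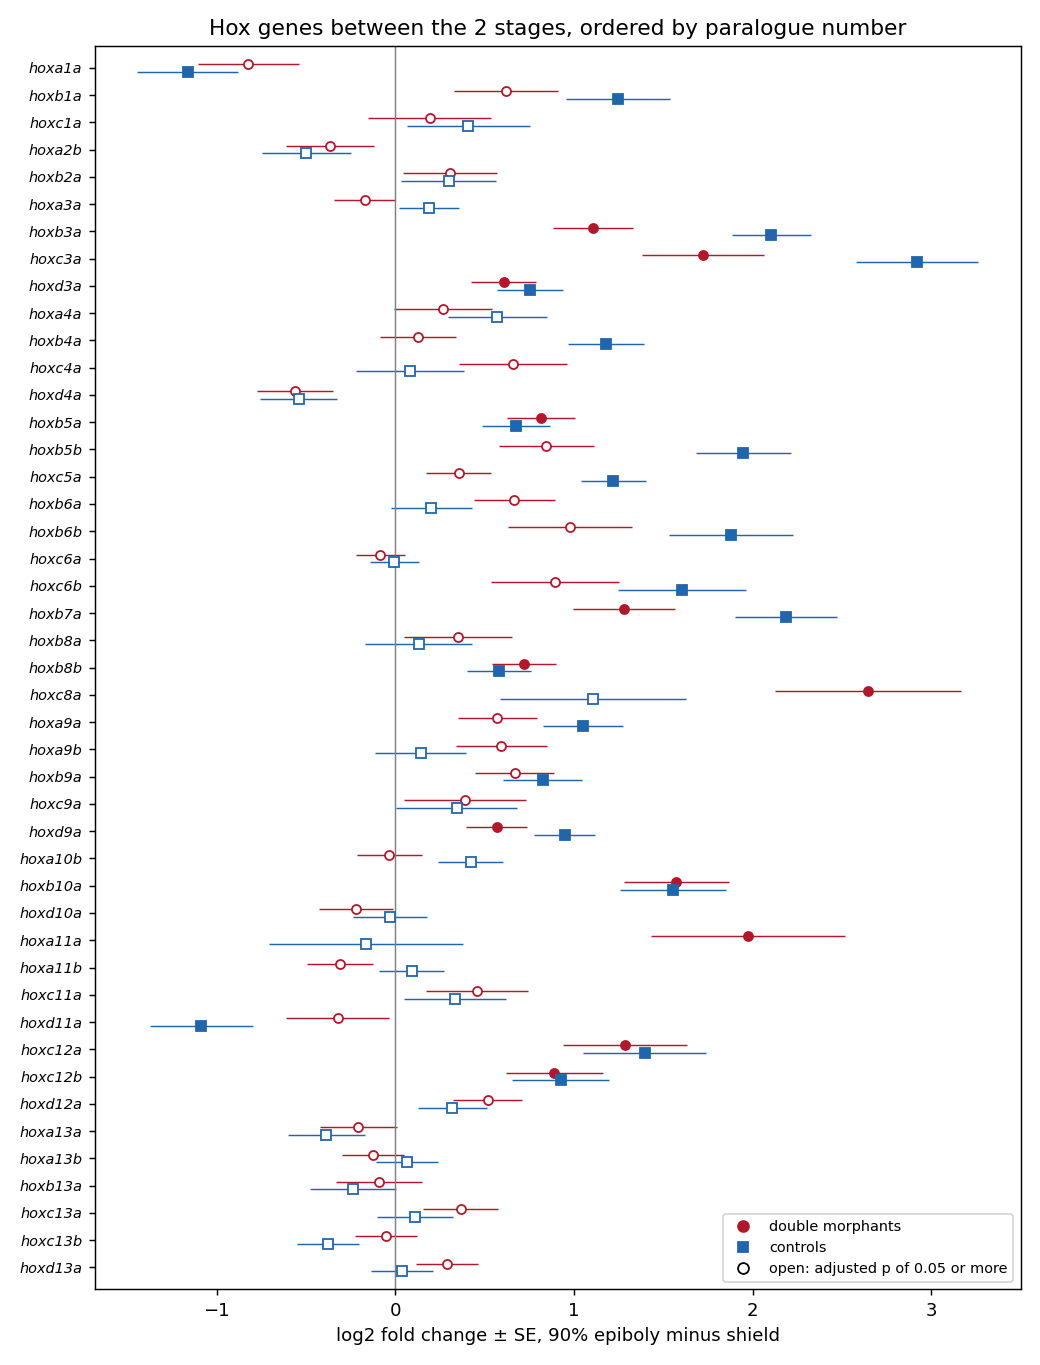
Change of each of the 45 Hox genes between the stages, 90% epiboly minus shield, as log2 fold change with SE (horizontal axis), with genes ordered by paralogue number from the top. Red circles are double morphants, blue squares are controls, and open symbols have an adjusted p of 0.05 or more. The red point lies left of the blue one for 24 of the 45 genes. These include 13 of the 16 genes of numbers 3 to 7 and 9 of the 24 of numbers 8 to 13. That split was drawn after the 90% epiboly values were seen, so these counts are partly built into it. Both points lie within each other's SE for *hoxb10a*, *hoxc12a* and *hoxc12b*, among others.

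The genes that were lower at 90% epiboly were 2, both in controls. *hoxa1a*, whose mouse counterpart acts in the early hindbrain, had 9.96, 9.86 and 9.05 at 90% epiboly and 11.14, 10.64 and 10.58 at shield in controls. These values did not overlap, and the fall was -1.16 ± 0.28 (adjusted p = 0.0160). In double morphants *hoxa1a* had 9.29, 9.65 and 9.74 at 90% epiboly and 10.93, 10.01 and 10.21 at shield, with a difference of -0.82 ± 0.28 (adjusted p = 0.0740). *hoxd11a*, a gene of the posterior body and fins, fell by 1.09 on the log2 scale in controls (adjusted p = 0.0248), and its difference in double morphants was -0.32 ± 0.29. Neither fall was seen in the other features of these genes, which stayed within 0.21 of 0 in both groups. *hoxc1a*, the remaining gene of number 1, changed by 0.19 ± 0.34 in double morphants and 0.41 ± 0.34 in controls.

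The genes that passed in double morphants and did not in controls were *hoxc8a* and *hoxa11a*. *hoxc8a* had 10.67, 9.53 and 10.37 at 90% epiboly and 8.23, 7.0 and 7.41 at shield in double morphants, a rise of 2.64 ± 0.52 (adjusted p = 0.00527). In controls it had 10.18, 9.65 and 9.59 at 90% epiboly and 9.81, 9.03 and 7.27 at shield, a change of 1.11 ± 0.52 (adjusted p = 0.201). The shield controls were far apart, and the 3 other features of *hoxc8a* rose in both groups, by 2.35 to 3.02 in double morphants and 2.09 to 3.55 in controls. *hoxa11a* rose by 1.97 ± 0.54 in double morphants (adjusted p = 0.0303), through the 2 high samples given above, and changed by -0.16 ± 0.54 in controls.

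Features of 1 gene did not always tell the same. The genes shown here were chosen after their values were seen. The feature that stood for *hoxb8a*, a trunk gene, had 14.16, 13.82 and 13.46 in 90% epiboly double morphants and 13.43, 13.85 and 13.10 in shield double morphants. In controls it had 13.36, 13.84 and 13.41 at 90% epiboly and 12.88, 14.12 and 13.22 at shield, so it did not separate the stages. The third feature of *hoxb8a* had 6.74, 7.85 and 7.95 at 90% epiboly and 5.52, 5.46 and 5.58 at shield in double morphants, a rise of 2.0 ± 0.26 (adjusted p = 3.8e-04). In controls it had 7.69, 7.81 and 8.08 at 90% epiboly and 5.42, 5.36 and 5.57 at shield, a rise of 2.41 ± 0.26 (adjusted p = 1.1e-04). Here the stages were separated by over 1 log2 unit in every sample, and double morphant replicate 1 was the lowest at 90% epiboly.

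Of *hoxc6a*, a gene of the trunk, the first feature changed by -0.08 in double morphants and -0.01 in controls, and the second rose by 1.39 ± 0.29 in double morphants (adjusted p = 0.00780) and 1.97 ± 0.29 in controls (adjusted p = 8.0e-04). *hoxb9a*, of the posterior trunk, changed by 0.67 in double morphants and 0.82 in controls by its first feature. By its second it rose by 2.61 ± 0.34 in double morphants and 2.51 ± 0.34 in controls, and the third feature stood at 2.30 in double morphants and 2.74 in controls. The second feature of *hoxc9a* rose by 1.06 ± 0.15 in double morphants and 0.96 ± 0.15 in controls, where its first did not pass. Of the 45 genes, 15 had their highest feature below a mean of 6.56, the 40th percentile of all features, and so had 74 of the 122 features.

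**Figure D4:**
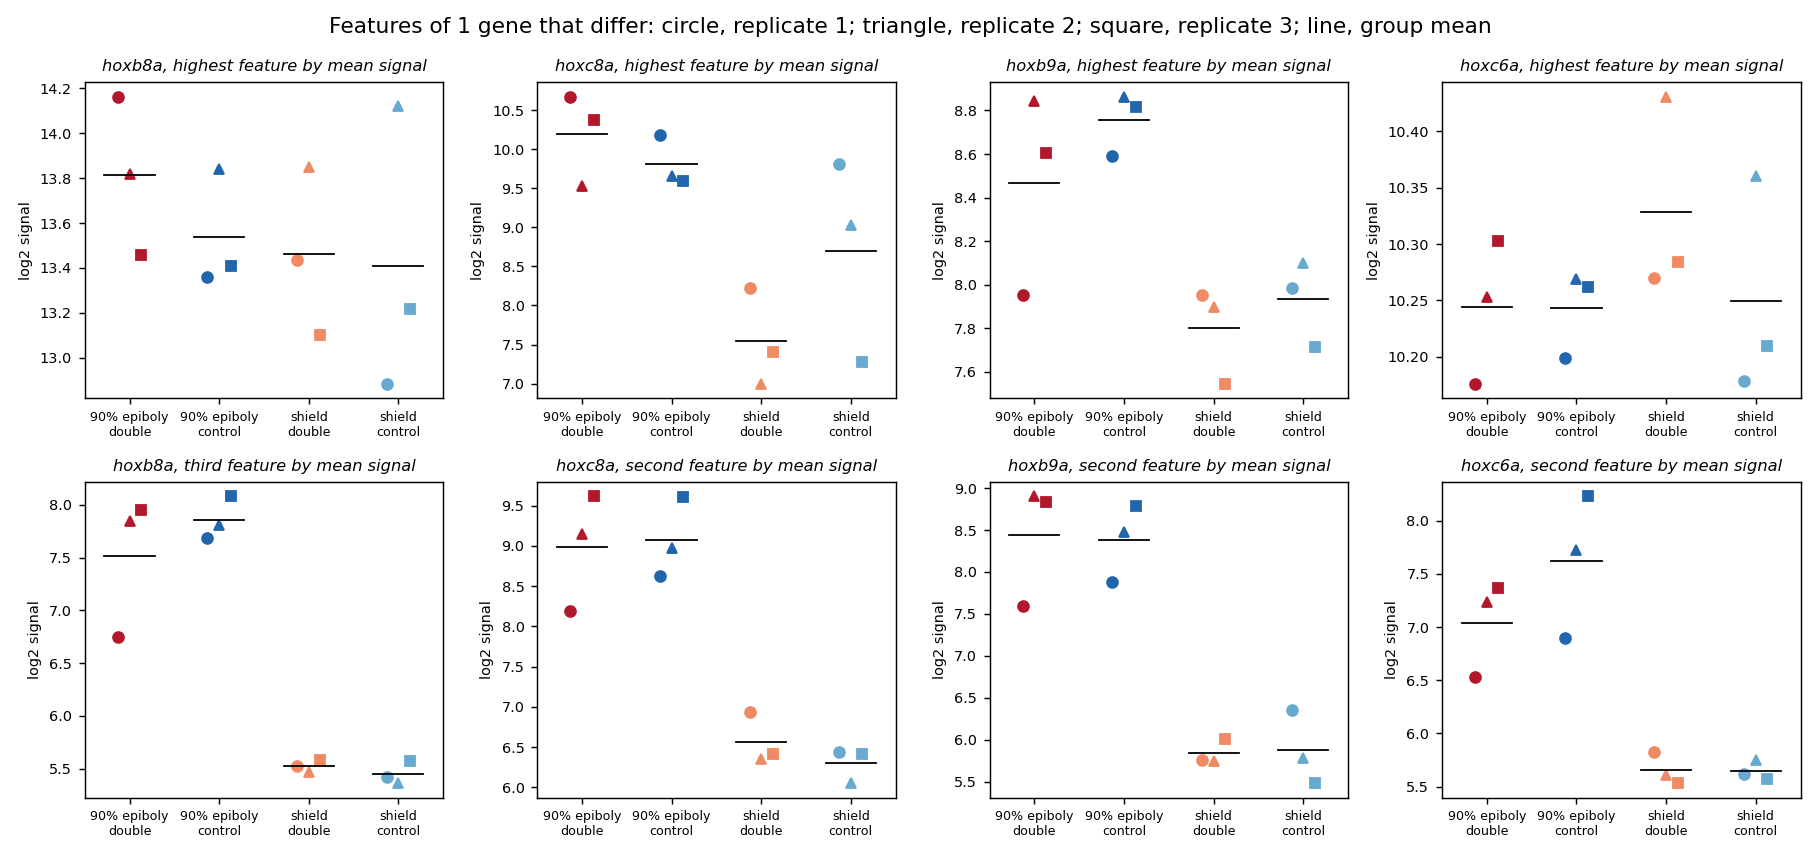
Signal in each sample for the highest feature (top row) and another feature (bottom row) of *hoxb8a*, *hoxc8a*, *hoxb9a* and *hoxc6a*. The vertical axes are log2 signal, groups run from 90% epiboly double morphants to shield controls, symbols mark replicate numbers and lines mark group means. The bottom features of all 4 genes are higher at 90% epiboly in both double morphants and controls, while the top features of *hoxb8a* and *hoxc6a* are level.

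By the feature that stood for them, 23 of the 45 genes did not pass between the stages in either group. Most of the 45220 features passed in neither group, since 5914 were called in double morphants and 5773 in controls. So the 23 are no sign that Hox genes changed less than other genes. Among these 23 Hox genes were all 6 genes of number 13, which act in the tail and fins. Both genes of number 2, *hoxa2b* and *hoxb2a*, and 3 of the 4 genes of number 4 were among them too. In the features of number 13, stage differences lay between -0.21 and 0.36 in double morphants and between -0.39 and 0.38 in controls. Knockdown differences in the same features lay between -0.28 and 0.47 at 90% epiboly and between -0.28 and 0.22 at shield. The features that stood for *hoxa13a*, *hoxb13a*, *hoxc13a*, *hoxc13b* and *hoxd13a* were dim, below the 40th percentile of feature means. Level values there need not mean steady expression.

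Hox proteins bind DNA together with cofactors of the Pbx and Meis families, and 13 of 14 listed cofactor genes were measured. At 90% epiboly 3 of the 13 were lower in double morphants (0.506% of all features) and 0 were higher (0.199%), with 1 higher at an unadjusted p under 0.05 (2.52%). *meis3*, a cofactor of hindbrain Hox proteins, had 9.62, 9.39 and 9.51 in double morphants, against 10.97, 10.82 and 11.05 in controls. The groups were far apart, at -1.44 ± 0.21 (adjusted p = 0.00285), with -1.57, -1.28 and -0.92 in its other 3 features. Set against its shield difference, the *meis3* difference at 90% epiboly differed by -1.52 (adjusted p = 0.0613), and its second feature passed this test of the interaction, at -1.88 (adjusted p = 0.0394). *meis1b* had 7.22, 7.50 and 7.40 in double morphants, against 8.74, 9.14 and 9.34 in controls. Its difference of -1.70 ± 0.31 (adjusted p = 0.0201) kept its direction in its other 2 features (-0.98 and -0.50). That call was lost without any 1 of 5 arrays of the stage, all but control replicate 1, with adjusted p between 0.0717 and 0.112.

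*pknox1.1*, a relative of the Meis genes, had 6.22, 5.72 and 5.68 in 90% epiboly double morphants, against 9.69, 9.15 and 9.48 in their controls. In double morphants at shield it had 9.78, 9.21 and 9.76, and in shield controls 9.83, 9.55 and 9.65, so the 90% epiboly double morphants alone were low. The difference was -3.57 ± 0.21 (adjusted p = 3.1e-07) at 90% epiboly and -0.09 ± 0.21 at shield. The second *pknox1.1* feature did not follow, with 8.03, 8.11 and 7.90 in double morphants against 8.61, 8.47 and 8.17 in controls, a difference of -0.40 (adjusted p = 0.829). The 6 *pbx* genes measured lay between -0.07 and 0.56 at 90% epiboly, and *meis2b* lay at -0.87 ± 0.22 (adjusted p = 0.126). At shield 0 of the 13 cofactors passed in either direction by limma. At an unadjusted p under 0.05, 1 was lower (4.55% of all features) and 1 higher (4.41%).

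Of 17 listed genes that act upstream of Hox genes, 16 were measured, and at 90% epiboly 2 were lower (0.506% of all features) and 0 higher (0.199%) in double morphants, with 0 higher at an unadjusted p under 0.05 too. *cdx4* encodes a caudal-type homeodomain factor that activates trunk and tail Hox genes. It had 10.52, 11.56 and 11.73 in double morphants, against 12.81, 12.79 and 13.20 in controls. Replicate 1 was again the lowest double morphant, and the difference was -1.66 ± 0.32 (adjusted p = 0.0265), or -1.40 in its second feature (adjusted p = 0.0209). Without any 1 of 5 arrays of the stage, all but double morphant replicate 3, the first feature had an adjusted p between 0.0572 and 0.145. *wnt8a*, a signal of the ventral and posterior margin, had 8.50, 8.76 and 9.12 in double morphants, against 10.75, 10.61 and 10.83 in controls. The groups did not overlap, at -1.94 ± 0.26 (adjusted p = 0.00156).

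At shield none of the 16 passed by limma and 2 were lower at an unadjusted p under 0.05 (4.55% of all features). There *cdx4* lay at -1.18 (adjusted p = 0.197) and *wnt8a* at -1.17 (adjusted p = 0.0909). With the replicate number as a block within stage, a fit of these genes added after seeing the data, both were lower at shield (adjusted p = 0.0362 for *cdx4* and 0.0316 for *wnt8a*), and the second *cdx4* feature had -0.98 (adjusted p = 0.0577). *cdx1a*, which acts together with *cdx4*, lay at -0.74 at 90% epiboly (adjusted p = 0.895). *aldh1a2*, the retinoic acid synthesizing enzyme, lay at -0.44 (adjusted p = 0.593) by its highest feature. By its second feature it had 7.32, 7.44 and 7.71 in double morphants, against 10.09, 9.86 and 10.41 in controls. That feature was lower by far more than the spread, at -2.63 (adjusted p = 1.9e-05), and also at shield, at -1.85 (adjusted p = 0.00114). *cyp26a1*, which degrades retinoic acid, lay at -0.07 at 90% epiboly. The median difference at 90% epiboly was -0.07 over the 13 cofactors and -0.32 over the 16 regulators. Of 6 measured hindbrain segment genes and the 3 *eve*-type neighbours of the clusters, 0 passed in either knockdown comparison by limma. At an unadjusted p under 0.05, 1 neighbour was lower at 90% epiboly (3.13% of all features) and 1 hindbrain gene was lower at shield (4.55%). These knockdown comparisons use the same control arrays as the Hox comparisons.

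**Figure D5:**
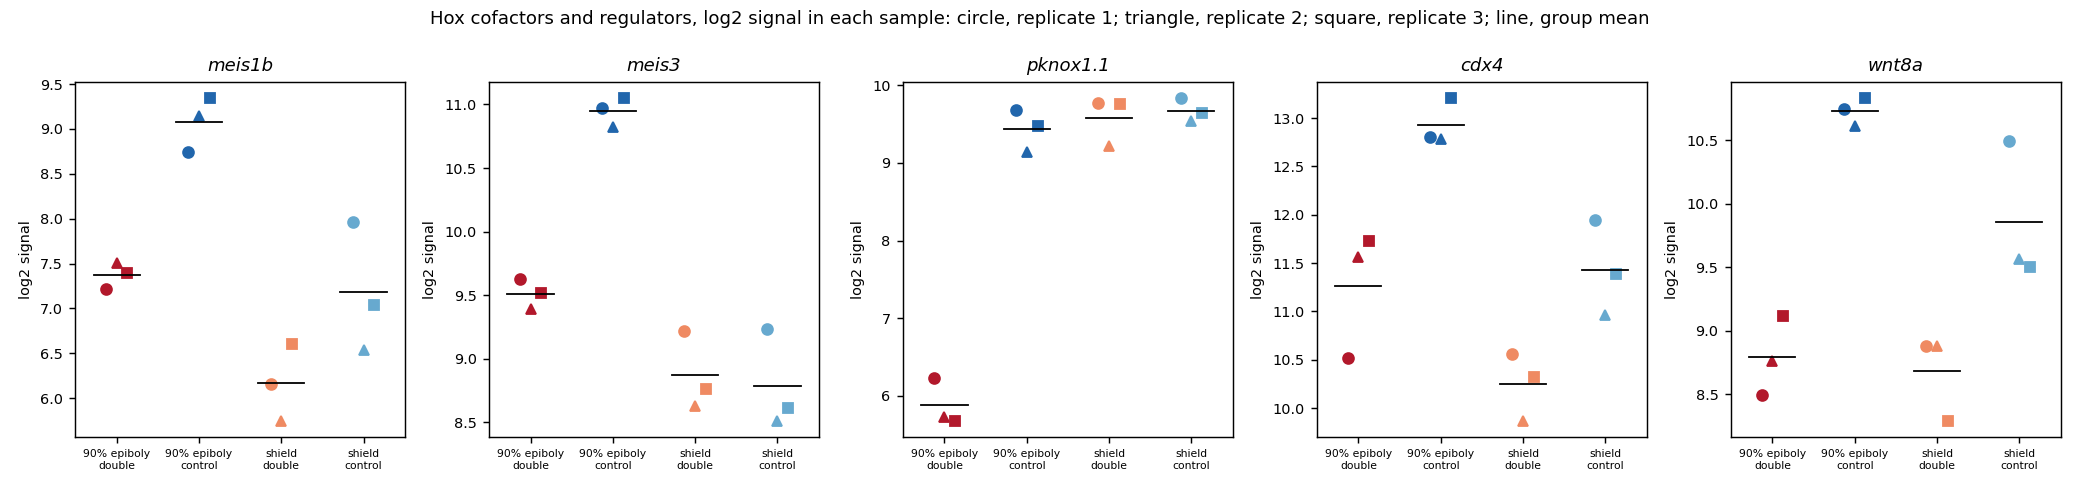
Signal in each sample for the 3 cofactor genes and the 2 regulator genes that passed the adjusted threshold between double morphants and controls at 90% epiboly. The vertical axes are log2 signal, groups run from 90% epiboly double morphants to shield controls, symbols mark replicate numbers and lines mark group means. In every panel all 3 double morphants at 90% epiboly lie below all 3 of their controls.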

How the data were processed

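The authors deposited 1 table of normalized log2 signals for 12 single-colour arrays. The base was inferred from the value range, and the background correction and the normalization were not stated in the paper, labels or file header used. Features were named by the platform's gene table, and 110 of the 122 Hox features matched by their own accession. All 45220 features were fitted with limma 3.58.1 (R 4.3.3) as 4 groups with 8 residual degrees of freedom, with contrasts between morpholinos within each stage, between stages within each morpholino, and their interaction. P-values were two-sided and Benjamini-Hochberg adjusted over all features, with a threshold of 0.05. Values after ± are limma's SE.

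Members, lists and cell type markers were chosen with earlier results of these data known. Genes named were those past the threshold in any comparison, those of paralogue number 1, the largest difference in each direction per comparison, and list members past the threshold. Alternatives changed the samples fitted, pairing, normalization, variance model, array weights, filter on dim features, test (the methods' t-test), choice of feature, symbols and arrays left out. The lists held Hox cofactors, Hox regulators, hindbrain segment genes, cluster neighbours and markers of paraxial mesoderm, neural plate, notochord, enveloping layer, yolk syncytial layer and the p53 response. The fit was tested on simulated data. With 3 arrays per group, their number limits the precision. In shield samples, same-numbered double morphants and controls deviated together from their group means (correlations of 0.34, 0.35 and 0.30). The labels do not say what a number marks, and whether those samples form pairs was not tested.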

Additional observations from a re-analysis of the deposited data

Results flagged for a closer look

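*pknox1.1* differed between double morphants and controls by -3.57 at 90% epiboly and by -0.09 at shield. The test of that difference gave -3.47 with a limma adjusted p of 2.3e-05, and the second feature of the gene did not show it. *msgn1* differed by -5.58 at 90% epiboly and -4.40 at shield, and the difference between the stages was -1.18 (limma adjusted p = 0.0359). That call was lost under 13 of 19 alternatives, arrays left out included, with a limma adjusted p up to 0.143.

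In 2 of the 122 Hox features, all double morphants lay below all controls at 90% epiboly and above all of them at shield. How many of all features do both was not counted, so the 2 cannot be judged against a share. Taken singly, 7.02% of all features lay below at 90% epiboly, and 2533 of the 45220 lay above at shield. The third feature of *hoxc3a* differed by -0.94 at 90% epiboly and 0.48 at shield, a difference of -1.42 between the stages (limma adjusted p = 0.245). The second feature of *hoxa9a* differed by -0.60 at 90% epiboly and 0.38 at shield, a difference of -0.98 (limma adjusted p = 0.814). Neither difference passed the adjusted threshold.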

How the results depend on the processing

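At shield the count of Hox genes past the threshold was 0 under all alternatives run. At 90% epiboly, where it was 0, it was 1 with the stages fitted separately (*hoxb4a*), 8 with array weights, 2 with features of a gene averaged, and 1 each when any feature or the second highest feature counted. The last 2 alternatives were chosen after seeing the data. Leaving out 1 array at a time gave 0 to 0 at shield, 0 to 2 at 90% epiboly, 0 to 1 for the interaction, 4 to 13 for the stages in double morphants (12 with all arrays) and 11 to 21 in controls (20 with all arrays). The interaction count of 1 was *hoxa11a*, without 90% epiboly double morphant replicate 1. The methods' t-test left 1 gene between the stages in double morphants and 0 in controls. By their second highest feature, 4 values changed sign: *hoxa10b* (-0.22) and *hoxc8a* (0.26) between morpholinos at shield, and *hoxd9a* (-0.10) and *hoxa1a* (0.21) between the stages in double morphants. Genes with 1 feature kept it under that alternative, so their values could not change. Of the 54 values of single genes, these included, 33 stayed the same, 16 lost a call and 1 gained one. The cause of these changes was not tested. With the replicate number as a block within stage, the counts between morpholinos and for the interaction stayed 0. As a block over all 12 arrays they were 0 too, and the stage counts were 11 in double morphants and 19 in controls. The block within stage, applied to the listed genes after seeing the data, brought *cdx4*, *wnt8a* and the axial gene *foxa2* (-0.96, adjusted p = 0.0268) past the threshold at shield. Same-numbered samples at 90% epiboly correlated at 0.20, 0.08 and 0.41, against -0.27 to 0.03 for samples of different numbers. Deviations were taken from the mean of each group, so they sum to 0 within it. Positive values for same-numbered samples therefore go with lower ones for the others by construction. Same-numbered samples deviated together there too, weakly for number 2, and whether they form pairs was not tested. Of 568 values of single genes under the other settings, 497 kept their direction and side of the threshold, 60 lost a call, 11 gained one and 0 changed direction. The separate stage fits, replicate blocks, variance model, dim filter, t-test and updated symbols use the same group means, so no direction could change there. With arrays left out, it was 640 of 744, with 99 lost, 5 gained and 0 turned. A difference also could not change when the array left out lay outside the groups compared. Dim signal limited 74 of the 122 Hox features, which lay under the 40th percentile of feature means.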
